A study of Mus musculus with 4 samples.

Results

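The genes described here encode the classical axon guidance ligands and their receptors, and were measured by RNA-Seq in differentiating mouse neural stem cells (NSCs) after knockdown of lnc-OPC, a long non-coding RNA of oligodendrocyte precursor cells (OPCs). Members were all rows of the gene count table whose symbol belongs to the semaphorins of classes 3 to 7, the plexins, neuropilins, Eph receptors, ephrins, Slits, Robos, netrins, Unc5 receptors or Dcc. The name pattern found 71 of the 22608 genes in the table. Of these, 69 encode guidance ligands or receptors. The other two, Unc50 and Unc5cl, share only the letters of the Unc5 symbols and have no known role in guidance, so they are counted among the 71 but belong to no family below.

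Guidance cues are secreted or membrane-bound proteins that attract or repel growing axons and migrating cells. Semaphorins act through plexins, with neuropilins as co-receptors for most secreted (class 3) semaphorins. Ephrins act through Eph receptor tyrosine kinases, Slits through Robo receptors, and netrins through Dcc, which mediates attraction, and through Unc5 receptors, which mediate repulsion. In the developing and injured central nervous system, OPCs also read these cues as they migrate: Sema3a is known to repel them and Sema3f to attract them, and netrin-1 guides them in the spinal cord and optic nerve.

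The cells were NSCs of the cerebral cortex of embryonic CD-1 mice, by the study's methods. They were expanded with EGF and FGF at 20 ng/ml each, transduced with a lentivirus that carried a short hairpin RNA, and selected with puromycin. All of them were then driven toward OPCs over 3 days by T3, a thyroid hormone, at 40 ng/ml together with CNTF at 20 ng/ml. The 2 control libraries came from cells with a hairpin labelled as against luciferase, whose sequence was not matched to mouse transcripts here, and the 2 knockdown libraries from cells with a hairpin against lnc-OPC. By the labels the groups differ in the hairpin alone, both hairpins were given to unsorted, infected cultures, and the knockdown rests on 1 hairpin, so an effect of its sequence on other transcripts and an effect of lnc-OPC cannot be told apart. The columns of the count table name it sh-lnc-OPC2, which the study directed at the last exon of lnc-OPC. Its target, from the study's oligonucleotide list, is shown because it defines the treated group (lower case, 21 bases, 5′ to 3′):
sh-lnc-OPC2: gaacgtcactaaccttctgtt

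No GENCODE M21 transcript contained this target, and a row for lnc-OPC was not found among the counted genes. The depth of knockdown was therefore not measured here, and sample identity rests on GEO's labels. By qPCR, the study reported lower lnc-OPC in NSCs with this hairpin and with another hairpin. It also reported lower MBP, PLP and CNP with both after differentiation. Only the former hairpin is in these libraries. Between 46144779 and 50098577 reads fell in genes per library, and the members took between 0.470% and 0.478% of them. Log2 CPM correlated at 0.995 and 0.996 (Pearson) within the groups and at 0.984 to 0.986 between them. Levels are CPM, read counts scaled for depth by the TMM-adjusted library size.

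Of the 71 members, 63 had enough reads to be tested with edgeR. Of these, 14 were higher after knockdown, 29 were lower and 20 were not called at an adjusted p under 0.05. The lower calls made up 46.0% of the tested members, where 23.3% of all 14090 tested genes were called lower, and the higher calls 22.2%, where 23.5% of all genes were called higher. The share called lower stood above that background and the share called higher close to it, which is given as a description with no test of the list. Fewer cells of a type and less RNA per cell cannot be told apart in these bulk libraries.

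The members' median absolute log2 fold change was 0.36, against 0.17 over all genes tested, and the median signed change was -0.16, against 0.00. A change of over 1.5-fold was called lower for 13 members (20.6%, background 5.05%) and higher for 3 members (4.76%, background 3.64%). A change of over 2-fold was called lower for 4 members, Sema4a, Slit3, Sema4d and Efna1 (6.35%, background 2.26%), and higher for 0 (background 1.56%). The groups did not overlap in 54 of the 63 tested members (85.7%), and in 72.6% of all genes. The median control level of the tested members was 27.9 CPM and that of all genes 28.8 CPM.

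**Figure D1:**
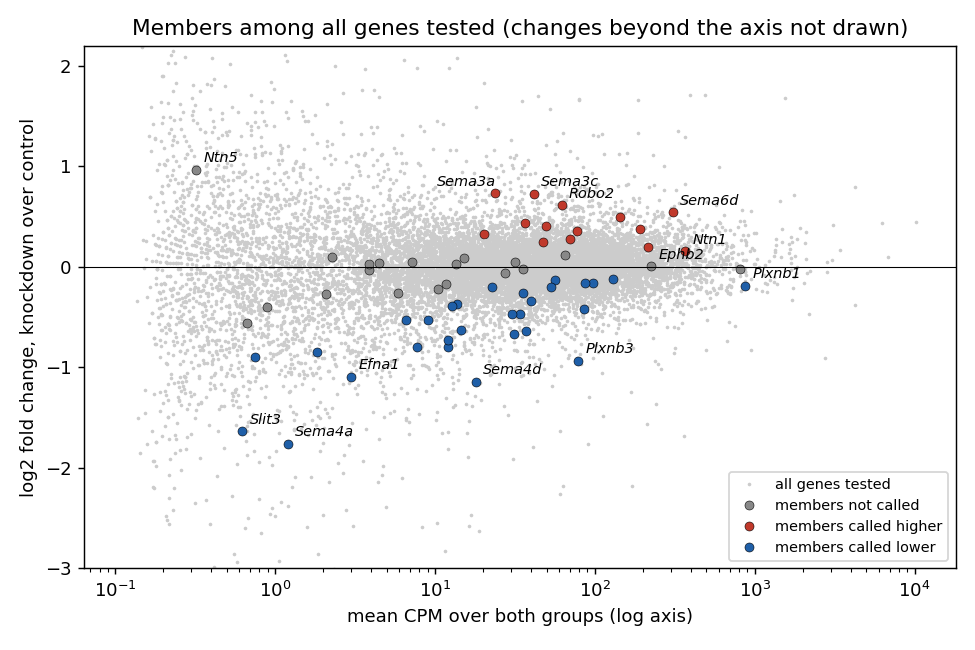
Fitted log2 fold change (knockdown over control, vertical axis) of every tested gene (small grey points) against its mean CPM over both groups (log axis), with the 63 tested guidance members as large points in red (called higher), blue (called lower) or dark grey (not called). The members called lower reach a log2 change of -1.76 (Sema4a), while none called higher passes 0.74 (Sema3a), and Ntn5 at the top left has a large fitted change on few reads and was not called.

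Of the 34 tested ligands, 7 were higher and 16 lower, and of the 28 tested receptors, 6 were higher and 13 lower, where 23.5% of all genes were called higher and 23.3% lower. The 4 members called lower over 2-fold were all ligands, and ligands were 34 of the 62 guidance genes tested. Of the 4, Sema4a and Slit3 had at most 102 and 64 reads in a library. Without knockdown replicate 1 the receptor Plxnb3 also passed 2-fold (log2 -1.09), and without knockdown replicate 2 Efna1 did not (log2 -0.94). The median log2 change was -0.24 for ligands and -0.08 for receptors.

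The secreted class 3 semaphorins moved in both directions. Sema3a, which signals through neuropilin-1 and plexin-A receptors, had 16.7 and 18.9 CPM in the control libraries and 29.3 and 30.1 CPM in the knockdown libraries, a 1.67-fold increase (log2 0.74 ± 0.07 SE, edgeR adjusted p = 7.86e-11). Sema3c, a secreted cue that binds both neuropilins, had 32.0 and 30.8 CPM in controls and 50.2 and 54.0 CPM after knockdown, a 1.66-fold increase (log2 0.73 ± 0.05 SE, adjusted p = 2.14e-13). For both genes each knockdown library lay above each control. Sema3e, the plexin-D1 ligand that needs no neuropilin, rose 1.35-fold (31.3 and 30.6 against 41.7 and 42.2 CPM, adjusted p = 3.51e-08).

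Sema3d and Sema3f went the other way. Sema3d, a secreted cue of the same class, fell 1.73-fold, from 16.1 and 14.7 CPM to 9.73 and 8.07 CPM (log2 -0.79 ± 0.10 SE, adjusted p = 2.52e-08). Sema3f, the neuropilin-2 ligand that attracts OPCs, fell 1.54-fold, from 18.1 and 17.1 CPM to 11.6 and 11.2 CPM (log2 -0.63 ± 0.08 SE, adjusted p = 1.18e-07). The groups did not overlap for either gene. Sema3b was not called (log2 -0.27 ± 0.22 SE, adjusted p = 0.349), and Sema3g had at most 3 reads in a library and was not tested. The repellent Sema3a thus rose where the attractant Sema3f fell, while the summed level of the class per kb of exon went from 14.9 and 14.5 to 17.3 and 17.8 CPM per kb.

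Sema3d, Sema3a, Sema3e and Sema3c are neighbours in the genome. In RefSeq GRCm38.p6 they lie in this order within 5.35 Mb of chromosome 5 (chr5:12383161-17730268), a stretch with 22 protein-coding genes. Sema3d and Sema3a are 536 kb apart, Sema3a and Sema3e 422 kb, and Sema3e and Sema3c 3.32 Mb. The first of the 4 fell and the other three rose. Their promoters are printed so that the neighbours can be read side by side. That of Plxnb3, a plexin called lower on another chromosome, is printed too and was picked by no rule. Each is the plus strand, 5′ to 3′, of the 250 bases before the start that the RefSeq table gives, which for Sema3a and Plxnb3 lies inside the annotated gene span. Capitals mark ACAAAG or its reverse complement CTTTGT, a core recognised by SOX proteins:
Sema3d promoter, chr5:12382916-12383165, plus strand: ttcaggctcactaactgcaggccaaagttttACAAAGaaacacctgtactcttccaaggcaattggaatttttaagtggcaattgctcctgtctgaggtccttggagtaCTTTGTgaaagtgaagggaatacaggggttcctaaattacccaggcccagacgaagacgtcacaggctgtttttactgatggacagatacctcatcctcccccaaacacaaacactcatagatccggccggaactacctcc
Sema3a promoter, chr5:13396534-13396783, plus strand: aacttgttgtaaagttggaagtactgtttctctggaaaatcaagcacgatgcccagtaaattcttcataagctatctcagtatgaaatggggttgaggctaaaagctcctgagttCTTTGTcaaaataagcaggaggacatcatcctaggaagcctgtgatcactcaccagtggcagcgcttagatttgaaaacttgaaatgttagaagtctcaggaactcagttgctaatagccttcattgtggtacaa
Sema3e promoter, chr5:14025026-14025275, plus strand: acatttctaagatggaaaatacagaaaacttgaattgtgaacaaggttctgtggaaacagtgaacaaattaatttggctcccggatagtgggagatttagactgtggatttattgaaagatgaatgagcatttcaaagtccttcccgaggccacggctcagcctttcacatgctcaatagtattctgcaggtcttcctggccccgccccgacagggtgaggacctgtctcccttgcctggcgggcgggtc
Sema3c promoter, chr5:17574566-17574815, plus strand: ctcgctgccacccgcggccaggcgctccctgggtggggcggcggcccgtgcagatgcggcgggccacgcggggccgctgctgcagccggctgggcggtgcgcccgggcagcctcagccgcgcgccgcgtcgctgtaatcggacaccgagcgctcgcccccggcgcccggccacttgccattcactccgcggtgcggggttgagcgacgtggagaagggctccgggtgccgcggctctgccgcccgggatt
Plxnb3 promoter, chrX:73756853-73757102, plus strand: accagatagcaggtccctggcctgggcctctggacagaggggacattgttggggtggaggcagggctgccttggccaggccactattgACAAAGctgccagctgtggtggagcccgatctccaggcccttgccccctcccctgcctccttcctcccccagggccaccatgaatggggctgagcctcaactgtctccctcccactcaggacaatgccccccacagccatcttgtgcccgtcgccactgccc

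The letters of this core stood at 219 and 141 bases before the start of Sema3d, at 135 bases before that of Sema3a and at 162 bases before that of Plxnb3, and at no place in the windows of Sema3e and Sema3c. The window of Sema3c is 78.4% G and C and that of Sema3a 40.8%. Promoter windows were found by symbol for 61 of the 71 members, 77 windows in all. Of these windows 10.4% held the core on either strand, against 16.5% of the 32841 windows of the whole table. By call, 2 of the 11 higher genes with a window held it, 4 of the 24 lower genes and 1 of the 18 not called, against 18.6% of all genes with a window. A match is a description of letters, not of a bound site. The members' windows had a median G and C content of 64.4%, against 52.4% over the table.

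Of the 6 transmembrane class 4 semaphorins, 4 were called lower and none was called higher. Beside this, 23.3% of all genes tested were called lower and 23.5% higher. Sema4d, the plexin-B1 ligand that is made by oligodendrocytes in the brain, had 26.4 and 23.1 CPM in controls and 11.3 and 11.1 CPM after knockdown, a fall of 2.21-fold (log2 -1.14 ± 0.08 SE, edgeR adjusted p = 5.98e-14). Sema4a, better known for its roles in T cells, had 2.03 and 1.69 CPM in controls and 0.591 and 0.506 CPM after knockdown (log2 -1.76 ± 0.32 SE, 3.39-fold, adjusted p = 2.17e-05). The groups stood apart for both, although Sema4a had at most 102 reads in a library. Sema4c, a plexin-B2 ligand, fell 1.38-fold (adjusted p = 5.7e-08).

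Sema4f, another transmembrane semaphorin, was near the threshold. It had 1.19 and 0.770 CPM in controls and 0.571 and 0.485 CPM after knockdown (log2 -0.90 ± 0.37 SE, 1.86-fold, adjusted p = 0.0479). Its call was lost in DESeq2 (adjusted p = 0.144) and without any 1 of the 4 libraries (adjusted p from 0.059 to 0.426). Sema4g, the class member with the most reads, was not called, with 59.45 and 65.4 CPM in controls and 71.7 and 64.2 CPM after knockdown, so that the groups overlapped (adjusted p = 0.0554). Without control replicate 2 (adjusted p = 0.0489), without knockdown replicate 2 (0.00128) or without the filter on low counts (0.0151) it was called higher. Sema4b was not called (log2 -0.07 ± 0.06 SE).

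Both class 5 semaphorins fell. They are transmembrane proteins with thrombospondin repeats, and Sema5a is the ligand of plexin-B3. Sema5b had 99.1 and 97.8 CPM in controls and 74.0 and 73.5 CPM after knockdown, a fall of 1.34-fold with replicates far closer than the groups (adjusted p = 4.15e-11). Sema5a fell 1.15-fold (adjusted p = 0.00154, lost without control replicate 1).

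The class 6 semaphorins, also transmembrane, held 2 genes that rose and 2 that fell. Sema6d, a plexin-A1 ligand, had 251 and 252 CPM in controls and 372 and 361 CPM after knockdown, a 1.46-fold rise (log2 0.54 ± 0.03 SE, adjusted p = 8.48e-17). Sema6a, which binds plexin-A2 and plexin-A4, rose 1.41-fold from 118 and 121 to 166 and 172 CPM (adjusted p = 1.37e-14). The less abundant Sema6b and Sema6c fell 1.29-fold and 1.31-fold, the latter call being lost without control replicate 2. The summed class went from 43.6 and 44.1 to 59.1 and 58.6 CPM per kb. Sema7a, the lipid-anchored ligand of plexin-C1 and integrins, had 11.1 and 11.3 CPM in controls and 9.95 and 9.28 CPM after knockdown and was not called (adjusted p = 0.0654).

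**Figure D2:**
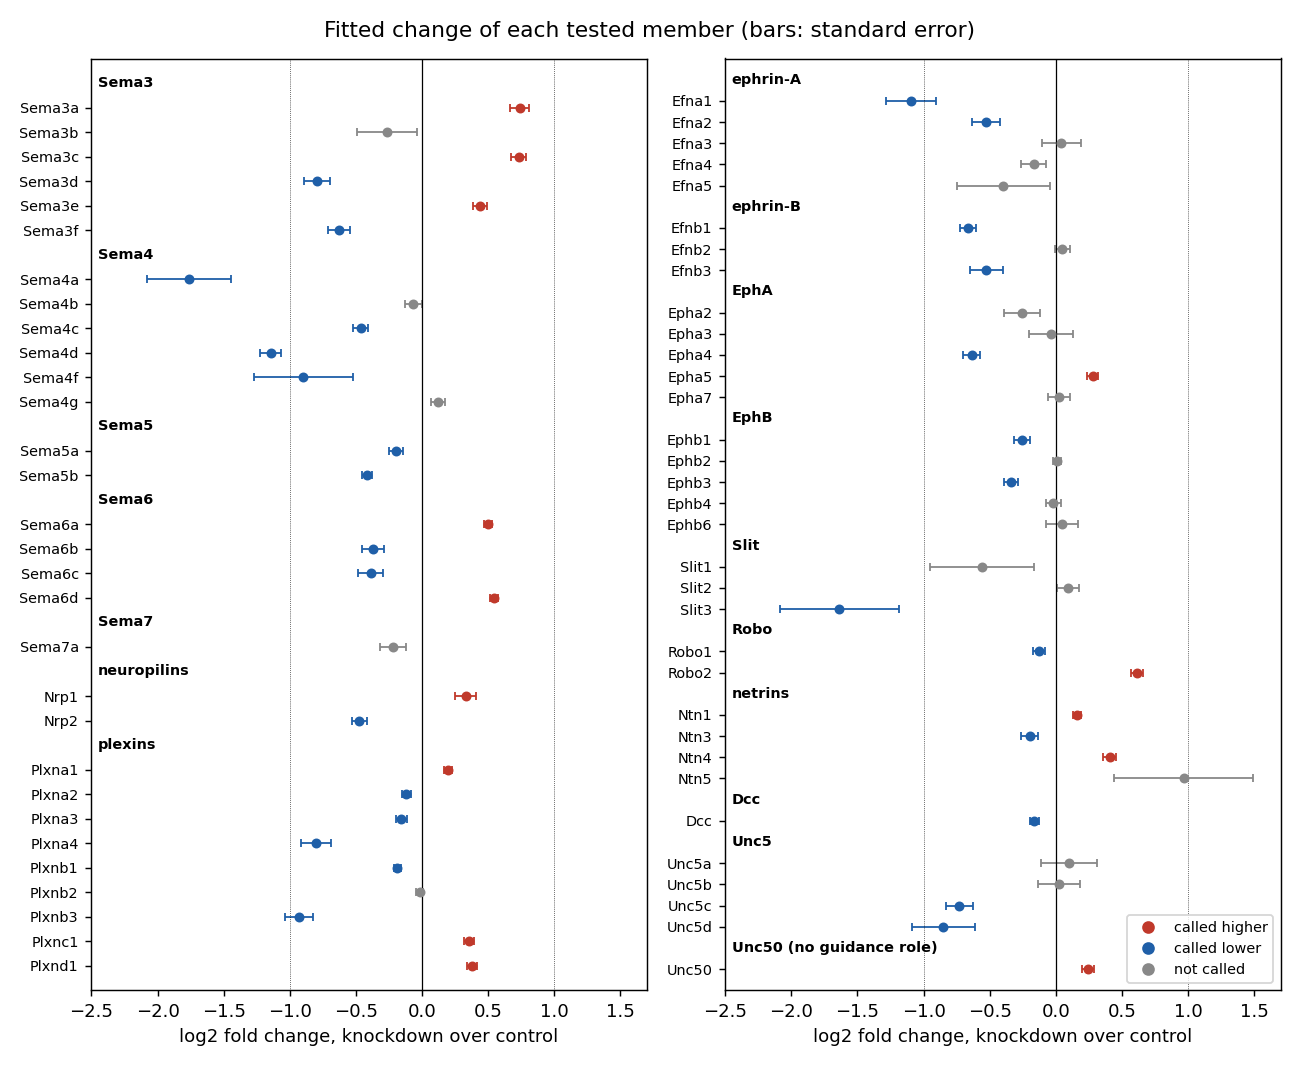
Fitted log2 fold change (knockdown over control, horizontal axis) of each of the 63 tested members, grouped by family, with the standard error as a bar. Red points were called higher, blue lower and grey not called at an edgeR adjusted p under 0.05, and dotted lines mark 2-fold. No class 4 semaphorin, class 5 semaphorin, ephrin or Slit is red, where 23.5% of all genes tested were called higher.

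The 2 neuropilins, the co-receptors of the secreted semaphorins, moved apart. Nrp1 had 19.7 and 16.5 CPM in controls and 21.9 and 23.6 CPM after knockdown, a 1.26-fold rise (log2 0.33 ± 0.08 SE, adjusted p = 0.000688). Nrp2 had 38.8 and 40.4 CPM in controls and 28.5 CPM in both knockdown libraries, a fall of 1.39-fold (log2 -0.47 ± 0.06 SE, adjusted p = 1.44e-08). Set beside their main ligands, Nrp1 and Sema3a were both higher, and Nrp2 and Sema3f were both lower. The call of Nrp1 was lost without control replicate 2, while that of Nrp2 was kept in each alternative fit.

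All 9 plexins, the signalling receptors of the semaphorins, were tested, and 3 were higher and 5 lower. Beside this, 23.5% of all genes tested were called higher and 23.3% lower. Plxnb3, a plexin known from rodent oligodendrocytes, fell furthest, from 106 and 101 CPM to 59.8 and 48.7 CPM (log2 -0.93 ± 0.11 SE, 1.91-fold, adjusted p = 0.00254). Plxna4, a receptor for Sema3a with neuropilin-1 and for class 6 semaphorins, fell 1.74-fold, from 9.78 and 9.99 CPM to 5.83 and 5.52 CPM (log2 -0.80 ± 0.11 SE, adjusted p = 3.93e-07). In both genes every knockdown library lay well under every control.

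The most abundant plexins were Plxnb1 and Plxnb2. Plxnb1, the Sema4d receptor, had 928 and 936 CPM in controls and 827 and 811 CPM after knockdown, a fall of 1.14-fold that was larger than the spread between replicates (adjusted p = 8.41e-07). Plxnb2, which binds class 4 semaphorins, had 815 and 814 CPM in controls and 805 and 804 CPM after knockdown and was not called (log2 -0.02 ± 0.03 SE, adjusted p = 0.628). The fall of 1.14-fold in Plxnb1 stands beside the fall of 2.21-fold in its ligand Sema4d. Plxna2 and Plxna3 fell 1.08-fold and 1.12-fold, and both calls were lost without control replicate 1, that of Plxna2 also without control replicate 2 or knockdown replicate 2.

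The plexins that rose did so by less than 1.5-fold. Plxnd1, the Sema3e receptor, rose 1.301-fold, from 159.9 and 176 CPM to 214 and 223 CPM (adjusted p = 2.47e-09). Plxnc1, the Sema7a receptor, rose 1.28-fold (adjusted p = 3.71e-09) and Plxna1, the Sema6d receptor, 1.14-fold (adjusted p = 2.32e-06). Known ligand and receptor pairs went both ways. Both partners rose for Sema3e and Plxnd1 and for Sema6d and Plxna1, and both fell for Sema5a and Plxnb3. The ligand rose and the receptor fell for Sema3a and Plxna4, for Sema6a with Plxna2 and Plxna4, and for Ntn1 with Dcc and Unc5c. Of the plexin-A receptors, Plxna1 rose with Sema3a, as did Nrp1, while Plxna2, Plxna3 and Plxna4 fell. The fall of Plxna2 was 1.08-fold, with a call lost without some single libraries. Plxnc1 rose and its ligand Sema7a was not called. Plxna1 shares 970 exon bases with the antisense gene Gm26811, whose reads cannot be told apart from it in libraries that do not mark strand. Among called members, shorter overlaps with another gene were found for Sema4c (334 bases), Plxnb1 (257), Ephb1 (152), Ntn3 (139 and 89) and Unc5c (118). Plxnc1 (115), Plxna4 (110), Nrp1 (80) and Sema4a (73) had them too.

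**Figure D3:**
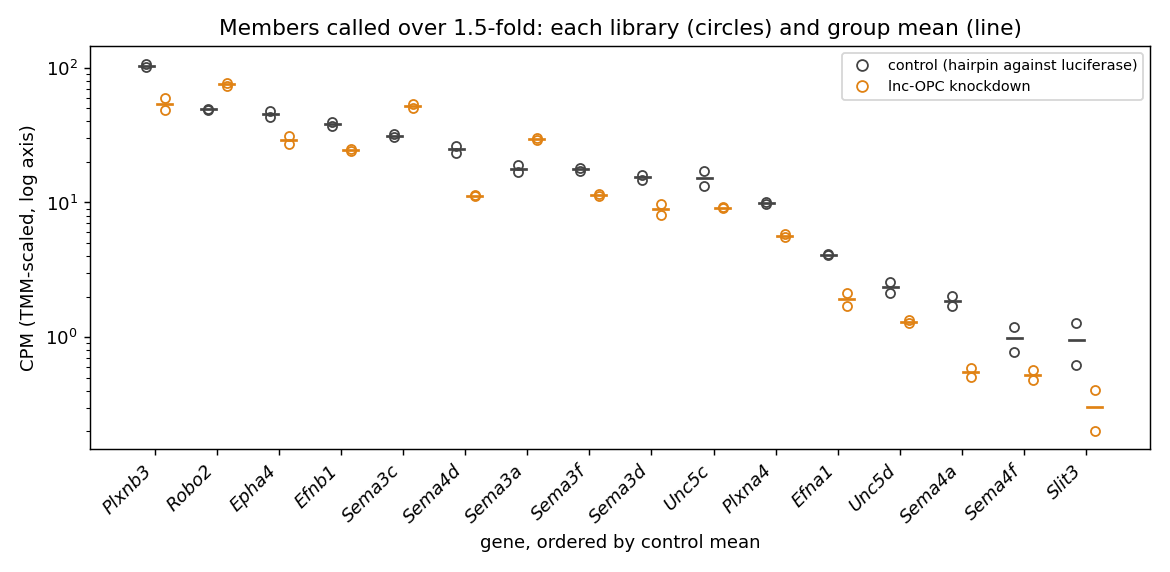
CPM (TMM-scaled, log axis) of the 16 members called with a change of over 1.5-fold, ordered by control mean, with each library as a circle (grey control, orange knockdown) and each group mean as a line. The 2 groups are apart for each of the 16 genes, which were chosen by their calls, and for 72.6% of all genes tested. Only Robo2, Sema3c and Sema3a sit higher after knockdown.

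None of the 8 ephrins, the membrane-bound Eph ligands, was called higher, and 4 were lower. Beside this, 23.5% of all genes tested were called higher and 23.3% lower. Efna1, a lipid-anchored ephrin, had 4.04 and 4.11 CPM in controls and 2.12 and 1.698 CPM after knockdown, a fall of 2.13-fold (log2 -1.09 ± 0.19 SE, edgeR adjusted p = 1.08e-05). Efnb1, a transmembrane ephrin, fell 1.58-fold from 39.8 and 37.2 CPM to 23.9 and 24.7 CPM (log2 -0.66 ± 0.06 SE, adjusted p = 3.17e-11). Neither gene had overlapping groups. Efna2 and Efnb3 each fell 1.44-fold.

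The remaining ephrins, Efna3, Efna4, Efna5 and Efnb2, were not called. Efna4, the ephrin-A with the most reads, had 12.05 and 12.7 CPM in controls and 10.2 and 11.8 CPM after knockdown (adjusted p = 0.153). Efna1, Efna3 and Efna4 lie side by side on chromosome 3, with 32.9 kb between the first pair and 10.5 kb between the next, and of these neighbours only Efna1 was called. The summed ephrin level went from 35.3 and 35.1 to 26.4 and 27.4 CPM per kb.

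Of the 14 Eph receptors 10 were tested, with 1 higher, 3 lower and 6 not called. Beside this, 23.5% of all 14090 genes tested were called higher, 23.3% were called lower and 7505 genes were not called. Epha4, which binds ephrins of both classes, fell 1.55-fold from 47.4 and 43.1 CPM to 31.1 and 27.2 CPM (log2 -0.64 ± 0.06 SE, adjusted p = 7.67e-10). Epha5, a receptor for ephrin-A ligands, was the Eph gene called higher, at 60.9 and 64.8 CPM in controls and 76.4 and 76.1 CPM after knockdown (1.21-fold, adjusted p = 1.47e-06). In both genes the groups stood apart.

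Among the ephrin-B receptors, Ephb3 and Ephb1 fell 1.26-fold and 1.195-fold. Ephb2, the Eph gene with the most reads, had 227 and 221 CPM in controls and 225 and 226 CPM after knockdown, with overlapping groups (log2 0.01 ± 0.03 SE, adjusted p = 0.823). Ephb4 and Ephb6 were not called either, nor were the ephrin-A receptors Epha2, Epha3 and Epha7. The call of Ephb1 was lost without control replicate 2.

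Among the Slits, secreted repellents of the Robo receptors, only Slit3 was called. Slit3 had 1.27 and 0.621 CPM in controls and 0.408 and 0.202 CPM after knockdown, a fitted fall of 3.11-fold (log2 -1.64 ± 0.45 SE, adjusted p = 0.00301). With at most 64 reads in a library, this rested on control replicate 1: without it the log2 change was -1.02 and the adjusted p was 0.246. Without knockdown replicate 1 the log2 change was -2.22 (adjusted p = 0.000947). Slit2 had 13.7 and 16.0 CPM in controls and 14.99 and 16.6 CPM after knockdown, with overlapping groups (adjusted p = 0.398), and Slit1 was not called (log2 -0.56 ± 0.40 SE).

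Robo2 and Robo1, the Slit receptors found in these cells, moved in opposite directions. Robo2 had 48.8 and 49.6 CPM in controls and 73.6 and 77.0 CPM after knockdown, a 1.53-fold rise (log2 0.61 ± 0.04 SE, adjusted p = 1.35e-13). Robo1 had 58.4 and 60.0 CPM in controls and 52.4 and 56.2 CPM after knockdown, a small fall of 1.09-fold (adjusted p = 0.0261) whose call was lost in DESeq2 (adjusted p = 0.0956) and without control replicate 1 (0.0808), control replicate 2 (0.19) or knockdown replicate 1 (0.309). The genes are 844 kb apart on chromosome 16. Per kb of exon, Robo1 had the higher mean level in controls (3.59 against 2.90 CPM per kb) and Robo2 after knockdown (4.43 against 3.29 CPM per kb).

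The netrins, secreted relatives of laminins, were led by Ntn1, the cue for Dcc and Unc5 receptors. Ntn1 had 349 and 343 CPM in controls and 386 and 388 CPM after knockdown, a rise of 1.12-fold (log2 0.16 ± 0.03 SE, adjusted p = 1.67e-05). Ntn4, a netrin of basement membranes, rose 1.33-fold from 40.1 and 44.8 CPM to 54.8 and 57.5 CPM (adjusted p = 6.15e-08). The increases were small but lay outside the spread of the replicates. Ntn3 fell 1.15-fold (adjusted p = 0.015), a call lost in DESeq2 and without control replicate 2 or knockdown replicate 1. Ntn5 had 0.219 and 0.214 CPM in controls and 0.428 and 0.425 CPM after knockdown and was not called (log2 0.97 ± 0.53 SE, adjusted p = 0.133), and it shares 519 exon bases with Sec1 on the other strand.

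Dcc and 2 of the 4 Unc5 receptors of the netrins fell. Dcc, the attractive receptor, had 102 and 103 CPM in controls and 91.8 and 91.7 CPM after knockdown, a fall of 1.12-fold (log2 -0.16 ± 0.04 SE, adjusted p = 0.000377). Unc5c, a repulsive receptor, fell 1.66-fold from 17.0 and 13.3 CPM to 9.20 and 9.08 CPM (log2 -0.73 ± 0.10 SE, adjusted p = 5.86e-07). Unc5d, of the same family, had 2.57 and 2.12 CPM in controls and 1.26 and 1.33 CPM after knockdown (log2 -0.85 ± 0.24 SE, 1.80-fold, adjusted p = 0.00361), and its call was lost without control replicate 1 (adjusted p = 0.083). Groups did not overlap in any of these receptors. Unc5a and Unc5b were not called (log2 0.10 ± 0.21 SE and 0.03 ± 0.16 SE).

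Low counts kept 8 members from being tested, Epha1, Epha6, Epha8, Epha10, Robo3, Robo4, Sema3g and Unc5cl, with at most 13 reads in a library. Robo4 is known as an endothelial gene. Unc50, caught by the name pattern alone, rose 1.18-fold (adjusted p = 8.31e-05), so that the 69 guidance genes themselves held 13 higher and 29 lower calls.

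Divided by exon length, levels can be compared between genes. In controls the highest levels were those of Plxnb2 (105 CPM per kb), Plxnb1 (97.1), Ntn1 (55.1), Unc50 (27.7) and Sema6d (23.8). After knockdown the first 3 kept their order, at 104, 85.4 and 61.6 CPM per kb, and Sema6d (34.7) passed Unc50 (32.8). Plxnb3 moved from rank 9 (15.9 CPM per kb) to rank 14 (8.35) and Sema6a from rank 11 (13.6) to rank 8 (19.2). Plxnb2 and Plxnb1 differed by more than their own control libraries did, but exon lengths were those of GENCODE M21 merged over isoforms, so small differences of level between genes also depend on the isoforms used.

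Rises and falls of single genes offset each other in the sums. Summed over all 71 members the level was 602 and 605 CPM per kb in controls and 605 CPM per kb in both knockdown libraries, although 43 members were called. Plexins made up the largest share, with 291 and 293 CPM per kb in controls and 283 and 280.2 after knockdown. Ligands together went from 209.9 and 209.8 to 220.5 and 221 CPM per kb and receptors from 364 and 367 to 352 and 351 CPM per kb. Netrins went from 71.1 and 71.6 to 80.4 and 81.5 CPM per kb, mostly through Ntn1, and class 4 semaphorins from 23.6 in both controls to 20.3 and 19.3 CPM per kb.

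**Figure D4:**
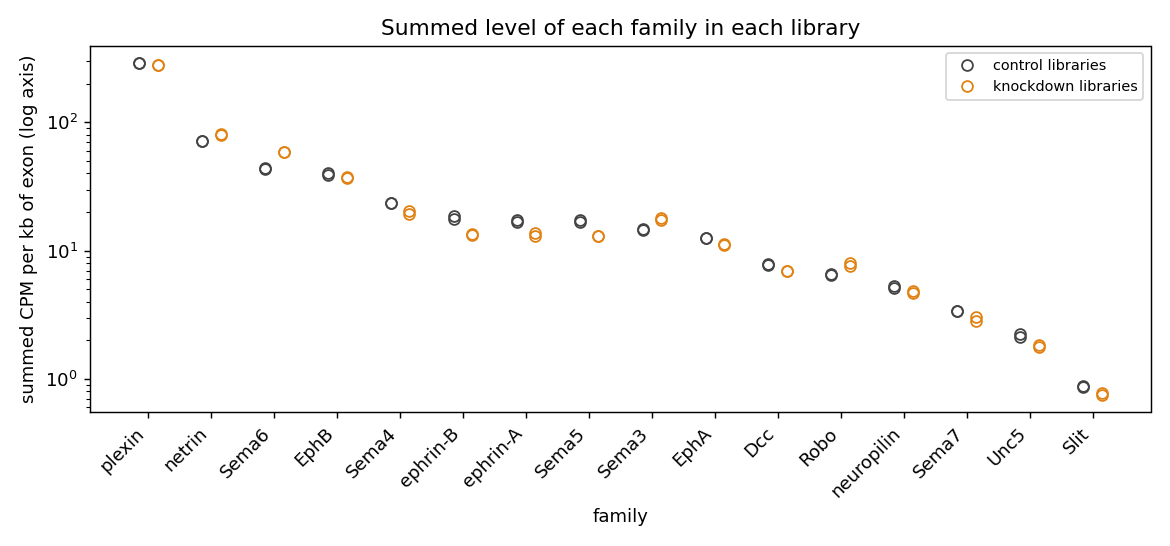
Summed CPM per kb of exon (log axis) of each guidance family in each library, control in grey and knockdown in orange, ordered by control level. Class 6 semaphorins, class 3 semaphorins, netrins and Robos sit higher in both knockdown libraries, and the other families, plexins to Slits, sit lower.

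Other genes of guidance signalling also changed in both directions. Of 31 further cues, receptors and adhesion molecules of guidance (the list of 32 names holds Draxin under 2 symbols), 7 were higher and 15 lower, beside 23.5% and 23.3% of all genes. Nrcam, an adhesion molecule that joins neuropilin-2 and plexins in semaphorin receptors, rose 2.00-fold from 184 and 179 CPM to 361 and 365 CPM (edgeR adjusted p = 8.13e-24). Chl1, its relative and a partner of neuropilin-1, rose 1.40-fold (adjusted p = 5.46e-15) and Fzd3, a Wnt receptor of guidance, 1.25-fold (adjusted p = 1.26e-11). Dscam, a netrin receptor, fell 1.86-fold from 50.5 and 51.1 CPM to 29.5 and 25.1 CPM (adjusted p = 1.47e-13). The list held 1 gene higher over 2-fold, Nrcam, and 3 lower, which are named here after their values were seen. Mag, a myelin protein that inhibits axon growth and also stands among the oligodendrocyte markers, fell 6.001-fold from 15.6 and 13.0 CPM to 3.02 and 1.74 CPM (adjusted p = 1.32e-08). Flrt1, a membrane protein of the FLRT family, fell 2.21-fold (adjusted p = 1.45e-07), and Rtn4rl2, a Nogo receptor relative that binds Mag, fell 2.14-fold (adjusted p = 2.25e-07). In each of these genes the groups did not overlap.

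Of 51 intracellular effectors below these receptors, 9 were higher and 29 lower, beside 23.5% and 23.3% of all genes, with a median log2 change of -0.14. Dpysl3, a collapsin response mediator protein of semaphorin signalling, rose 1.51-fold (adjusted p = 7.91e-17), while its relative Dpysl5 fell 1.26-fold (adjusted p = 1.7e-11). Rnd2, a small GTPase that binds plexins, fell 1.74-fold from 81.0 and 77.3 CPM to 43.8 and 47.4 CPM (adjusted p = 6.93e-16). Chn2, a Rac GTPase-activating protein related to the Eph effector Chn1, fell 1.92-fold (adjusted p = 5.22e-14).

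Markers of some cell types also differed between the groups. The summed level of 9 OPC and newly formed oligodendrocyte markers was 2896 and 2863 CPM in controls and 1978 and 1890 CPM after knockdown. Of these markers 8 were called lower, where 23.3% of all genes tested were. The other, Cspg4, was 1.08-fold higher and not called (edgeR adjusted p = 0.0628). Cspg4 had 38.8 and 40.4 CPM in controls and 43.7 and 42.2 CPM after knockdown. All 8 markers of myelinating oligodendrocytes were lower, with sums of 1222 and 1113 against 674 and 645 CPM. The astrocyte sum rose from 4318.5 and 4378 to 6740.4 and 6871 CPM, with 5 of 7 markers higher and 1 lower. Most of the rise came from Gfap (700 and 772 to 2301 and 2415 CPM) and Gja1 (227 and 234 to 752 and 755 CPM). Slc1a2 rose 2.49-fold, Slc1a3 1.17-fold and Aldoc 1.10-fold, Aqp4 fell 1.15-fold and Aldh1l1 was not called. NSC markers summed to 4969 and 4772 CPM in controls and 4576 and 4462 CPM after knockdown (3 higher and 2 lower of 6), and neuronal markers to 218 and 234 against 217 and 216 CPM. Of the 7 neuronal markers tested 3 were higher, Rbfox3 (2.08-fold), Stmn2 (4.91-fold, at under 1 CPM in each library) and Syt1 (1.38-fold), and 1 was lower, Dcx (1.31-fold). How far the members called lower, such as Plxnb3 and Sema4d, and those called higher, such as Sema6d and Sema3a, moved with these cell types was not tested.

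Defining markers of endothelial cells and microglia were at or near 0. The endothelial markers Pecam1, Cldn5, Cdh5, Tek and Flt1 and the mural marker Rgs5 had under 10 reads in every library, with Cldn5 and Cdh5 at 0. Pdgfrb and Acta2, both known from mural cells, fell. Pdgfrb went from 9.48 and 8.00 to 0.367 and 0.485 CPM (20.4-fold, edgeR adjusted p = 4.51e-18). The list summed to 366 and 344 CPM in controls and 134 and 136 CPM after knockdown. Almost all of this was Acta2 (357 and 335.5 against 133 and 135 CPM). Of 6 microglial markers 5 had under 10 reads in every library, with Cx3cr1 at 0, and the list summed to 0.578 to 1.01 CPM. The fibroblast markers Col3a1, Dcn and Lum had under 10 reads in every library, with Dcn and Lum at 0, and the sum of that list, 54.0 to 61.0 CPM, came almost wholly from Pdgfrl (53.2 to 60.7 CPM). The share of Slit3, Sema3c or other members that came from such cells was not tested.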

How the data were processed

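RNA was measured by paired-end, poly(A)-selected RNA-Seq from 100 ng of total RNA in 4 libraries, 2 per group, which the labels call biological replicates. Nothing states separate animals, so p-values measure the spread between these libraries. That spread was small, with a coefficient of variation of 2.955% fitted by edgeR, so small changes could be called. The deposited values were raw counts of reads in genes, whole and not normalized, obtained by the authors with HTSeq 0.6.1. Per the submitters' processing notes, SAMtools 0.1.18, Bowtie 0.12.7, TopHat 1.3.3, DESeq and Cufflinks were used with mm9, a mouse build. Neither annotation release nor strand option of counting is given in these sources, so reads of overlapping and antisense genes could not be told apart. Reads outside genes (20.1% to 22.2%) were left out. Other deposited tables held the authors' own DESeq comparison and gene ontology p-values and were not used.

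The counts entered edgeR 4.0.16 (R 4.3.3): filterByExpr (minimum count 10, minimum total 15), TMM scaling, robust quasi-likelihood fit over all 4 libraries with no covariate, and Benjamini-Hochberg adjustment over all 14090 genes tested. SE is the log2 fold change divided by the square root of its F statistic. The test was tested on simulated data. Exon lengths came from GENCODE M21, and positions and promoters from RefSeq GRCm38.p6, both of a later build than the reads' mm9, so they were used by symbol only. Values per library are given for each member called with over 1.5-fold change and for the member of each family with the highest control CPM, and for some others chosen after their values were seen. The members and the lists of other genes and markers were chosen with earlier results of these data known. Alternatives were DESeq2 1.42.0, its size factors, other filters, no robust estimate, a replicate block and leaving out each library.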

Additional observations from a re-analysis of the deposited data

How the results depend on the processing

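All 43 called members kept their direction in every alternative that gave them a value, and 32 kept their call in all of them. Those losing it in at least 1 alternative were Ephb1, Nrp1, Ntn3, Plxna2, Plxna3, Robo1, Sema4f, Sema5a, Sema6c, Slit3 and Unc5d, and the cause was not tested. Sema4f and Slit3 had no value under a filter of 1 CPM, which tested fewer genes. Leaving out each library in turn gave 14 to 15 members higher, 23 to 28 lower, 11 to 16 over 1.5-fold and 3 to 5 over 2-fold. DESeq2 gave 14 higher and 26 lower. The labels number the replicates in both groups, but nothing states that a number marks a shared culture, and same-numbered libraries deviated together by a correlation of 0.05 over all genes and 0.395 over the members. A replicate block gave 14 higher and 29 lower members, 3404 higher and 3377 lower genes of all tested, and changed no member's call. The uncalled Ephb2 ranged from -0.0076 (without control replicate 2) to 0.026 on the log2 scale without single libraries, and Slit2 from -0.019 (without control replicate 1) to 0.21. Efna4 was called lower without knockdown replicate 2 (adjusted p = 0.0386). Ranked by CPM without dividing by length, 9 of the 10 highest members changed rank, and Unc50 went from 4 to 22.

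With 2 libraries per group and 1 hairpin, depth limits Sema4a, Sema4f, Slit1, Slit3, Efna5 and Ntn5, which had at most 102 reads in a library. Knockdown of lnc-OPC itself was not measured in these counts.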
